A study of Arabidopsis thaliana with 36 samples.

Results

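RNA levels in roots of *Arabidopsis thaliana* were read here for 46 cell division genes. These encode cyclins, cyclin-dependent kinases (CDKs), the small CKS subunits and the CDK inhibitors. The genes were picked by identifier from their families, with earlier results of these data known. They comprise 9 A-type, 9 B-type and 9 D-type cyclins, 1 CDKA, 4 CDKB, 2 CKS, 7 KRP and 5 SIM/SMR genes, out of 33557 genes in the deposited table. Not every gene of these families is among the 46. The cyclins CYCA3;3 and CYCD7;1, which stayed under 1 RPKM in every library, and further SIM/SMR genes are outside it. All 46 reached at least 1 RPKM (read density over a gene, corrected for its length and for the number of reads mapped in the library) in at least 1 of the 12 RNA libraries, as did 21083 of all genes, and so all 46 entered the tests.

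A CDK is active only when bound to a cyclin. In plants the D-type cyclins pair mainly with CDKA and respond to sugar, hormones and other growth signals at entry into the cycle, the A-type cyclins act from S phase onwards, and the B-type cyclins act with B-type CDKs in G2 and mitosis. CKS proteins are small docking subunits of the kinase complex, while KRP and SIM/SMR proteins bind the complexes and inhibit them, and both inhibitor families are known for their part in the switch from division to endoreduplication as root cells leave the meristem.

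Roots of the otu5 mutant and of wild type (WT) were compared, each on low-phosphate (low Pi) and on control medium, which gives 4 groups of 3 libraries: otu5 low Pi, otu5 control, WT low Pi and WT control. OTU5 removes ubiquitin from proteins and belongs to the ovarian tumour (OTU) proteases, and the study asked about its role in root development and in the root changes that follow Pi starvation. Plants were grown on plates in continuous light after cold treatment of the seeds, roots were taken 14 d after germination, and polyadenylated RNA was read in 100-bp reads. The labels give the mutant only as otu5, with no allele or number of lines. They do not say how many plants a library pools or whether replicates are separate cultures, so p-values measure the spread between these libraries, which may be technical. The culture condition label follows the genotype and contradicts the title in 6 of the 12 RNA libraries. Groups were taken from the titles, so the medium of each library rests on its title and was not checked here. Roots are named as the tissue and in the growth text, whereas the RNA isolation text names rosette leaves.

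RPKM sums per library lay between 993382 and 1330830, absolute depth is unknown, and relative depth read from the lowest values was 0.67 to 1 of that in WT control replicate 1. AT2G01021 alone took 21532 to 317971 RPKM, with the highest value in WT control replicate 3, but median-ratio size factors were 0.9995 to 1.001, so the typical gene was level across libraries. The OTU5 transcript (AT3G62940) followed the genotype labels, with 0.811 ± 0.329 RPKM in otu5 low Pi roots against 39.9 ± 0.926 in WT low Pi roots, and 1.36 ± 0.336 RPKM in otu5 control roots against 40.9 ± 1.90 in WT control roots (SD, n = 3 each). Markers of the root were present: all 9 genes for the root meristem and stem cell niche were tested, and their summed level was 94.1 to 104 RPKM in otu5 low Pi, 86.3 to 107 in otu5 control, 87.2 to 102 in WT low Pi and 86.4 to 113 in WT control. Of 3 shoot meristem genes, WUS and CLV3 were listed at 0 in every library and STM reached at most 0.176 RPKM. The 6 genes of green shoot tissue were nevertheless read in every library, with sums of 432 to 446 RPKM in otu5 low Pi, 595 to 655 in otu5 control, 353 to 449 in WT low Pi and 468 to 557 in WT control.

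Within each family the level was carried unevenly, as the plot of all 46 levels shows. Levels per gene length, averaged over the 12 libraries, were highest for CKS1 (79.0 RPKM), CKS2 (59.0) and CDKA;1 (55.3), the kinase that acts through the whole cycle. CYCD3;1, a cytokinin-responsive cyclin that promotes mitotic cycling, was the strongest cyclin, with 45.6 RPKM or 25.8% of its family's sum, and CYCD3;2, CYCD3;3 and CYCD2;1 followed. CYCA3;2 led the A-type cyclins with 23.6 RPKM, or 28.5% of the family sum. Among the B-type cyclins CYCB1;2 led with 24.2 RPKM, or 21.4%. CDKB2;1 held 40.0% of the CDKB sum at 35.5 RPKM. KRP2 and KRP6 together led the KRP family with 25.6 and 23.8 RPKM. SIAMESE (SIM), the founding member of its family, had 38.1 RPKM, or 47.6% of the sum of the 5 SIM/SMR genes among the 46. Further SIM/SMR genes are in the list of other cell cycle genes below and are not in this sum. The lowest member was CYCA1;2, known for its role in meiosis, at 0.503 to 1.19 RPKM, and it reached 1 RPKM in 2 libraries. CYCA2;1 at 1.34 and CYCD4;2 at 1.68 RPKM came next.

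**Figure D1:**
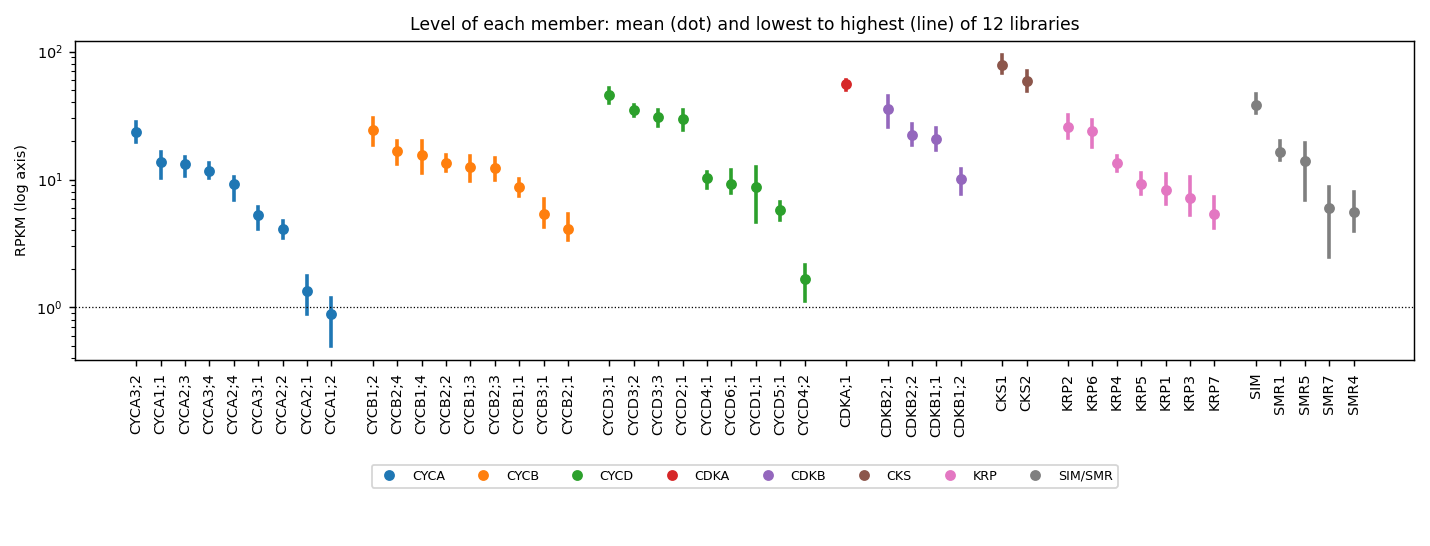
Mean RPKM of each of the 46 genes over the 12 libraries (dots, log axis) with the lowest and highest library (lines), ordered by mean within each family and coloured by family; the dotted line marks 1 RPKM. CKS1 at 79.0 RPKM lies at the top and CYCA1;2, the lowest, is the member whose mean lies under 1 RPKM.

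The genotype comparisons held most of the differences. On low Pi medium 6 of the 46 genes were lower and 2 were higher in otu5 than in WT roots, and on control medium 11 were lower and 1 was higher. Those that fell were B-type cyclins, B-type CDKs, both CKS genes, CYCD1;1 and the inhibitor KRP2, and those that rose were CYCD2;1 and CYCD3;3. Calls are limma tests of log2(RPKM + 0.5) at a Benjamini-Hochberg adjusted p under 0.05 over all 21083 genes. By the same rule 5.64% of all genes were lower and 3.88% higher in otu5 on low Pi medium (9.52% in either direction), and 5.25% were lower and 4.61% higher on control medium (9.86% in either direction). The share of the 46 genes that fell in otu5 was therefore above the share of all genes on both media, most clearly on control medium, whereas the share that rose was near it on low Pi medium and below it on control medium. The median difference of the 46 genes was -0.14 on the log2 scale on low Pi medium and -0.20 on control medium, beside 0.0047 and 0.0034 over all genes tested. In these whole roots, fewer dividing cells and less RNA per dividing cell cannot be told apart.

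The 2 genotype comparisons use separate libraries, so their values can be read side by side. In 9 of the 46 genes all 6 otu5 libraries lay below all 6 WT libraries, and in 2 genes they all lay above, while over all genes tested these patterns held for 4.37% and 4.13%. The 9 lower genes were CYCB1;2, CYCB1;4, CYCB2;2, CYCB2;4, CYCD1;1, CYCD4;2, CDKB2;1, CKS1 and CKS2, and the 2 higher genes were CYCD2;1 and CYCD3;3. Within one medium, the 3 otu5 libraries lay below the 3 WT libraries in 13 genes and above them in 3 on low Pi medium, beside 14.3% and 14.4% of all genes. On control medium they lay below in 21 genes and above in 3, beside 16.9% and 15.8% of all genes.

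**Figure D2:**
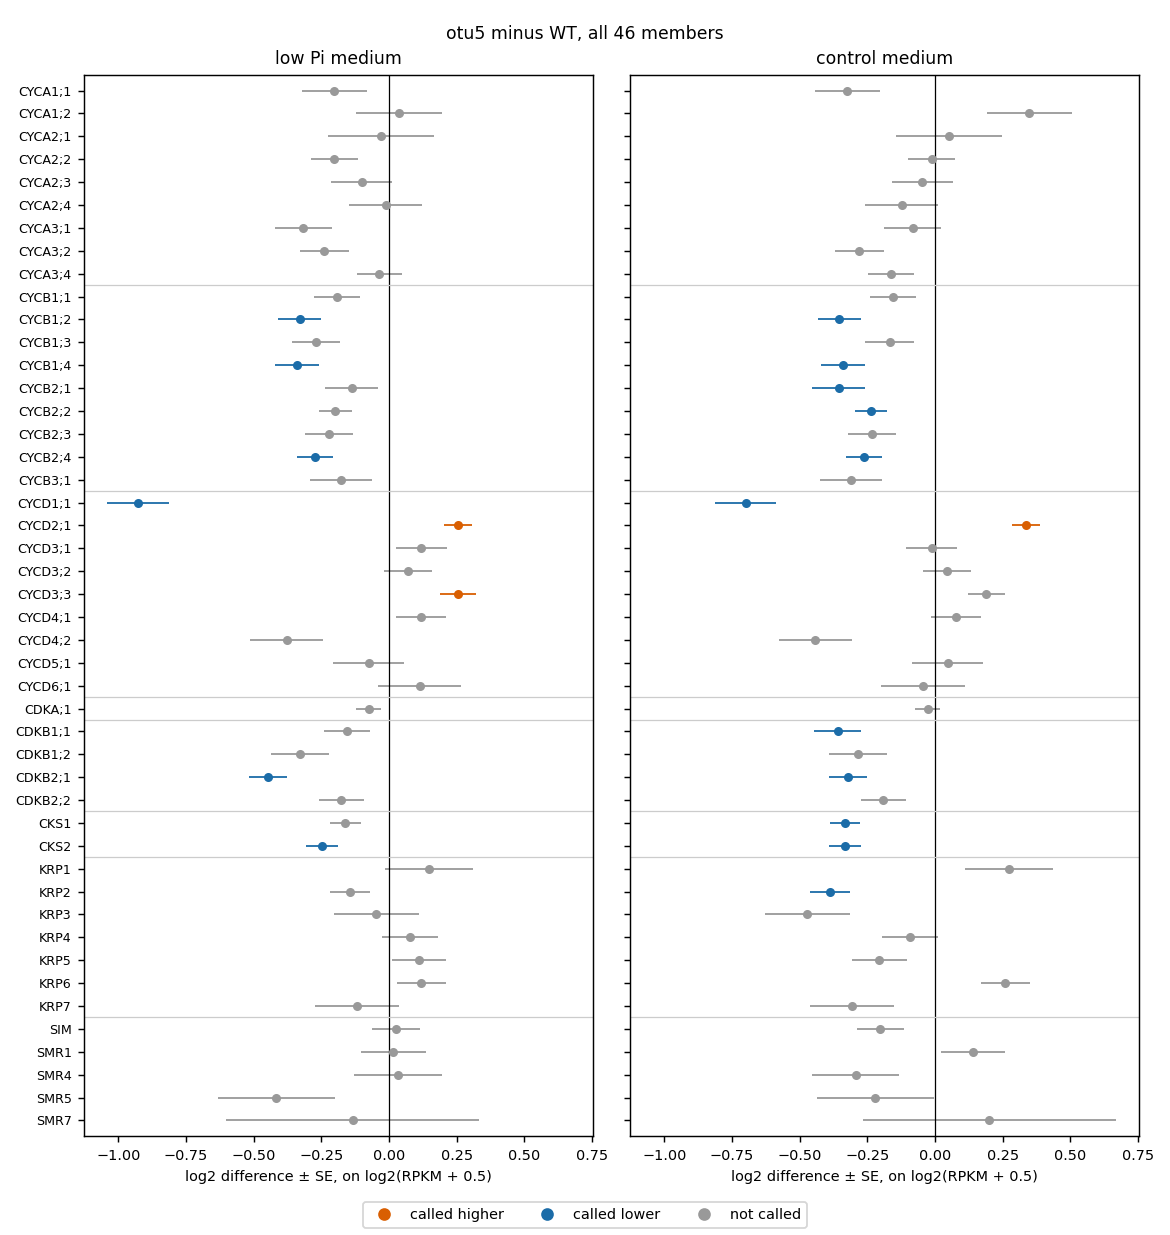
Differences otu5 minus WT on the log2(RPKM + 0.5) scale with their standard errors (horizontal axis) for all 46 genes (rows, grouped by family), on low Pi medium (left) and control medium (right); coloured dots passed the test. All 9 CYCB and 4 CDKB genes lie left of 0 in both panels, and CYCD1;1 lies farthest left in both.

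Among the D-type cyclins, which carry growth signals into the cycle, the members moved in opposite directions. CYCD1;1 (AT1G70210), known for early expression in the root tip of germinating seeds, had the largest difference of all 46 genes. It had 4.62, 5.38 and 5.67 RPKM in otu5 low Pi roots, against 11.1, 11.2 and 8.89 RPKM in WT low Pi roots. On control medium it had 8.15, 6.27 and 7.43 RPKM in otu5 roots, against 11.99, 12.6 and 11.7 RPKM in WT roots. Every otu5 library was thus below every WT library. The level in otu5 was 50.2% of that in WT on low Pi medium (log2 difference -0.93, SE 0.11, adjusted p = 0.0015) and 60.3% on control medium (-0.70, SE 0.11, adjusted p = 0.0058), and both calls held in each of the 12 fits that left out 1 library and under the 9 other alternatives.

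CYCD2;1 (AT2G22490), a sugar-responsive cyclin that acts with KRP2 in lateral root formation, differed the other way. It had 31.8, 31.1 and 30.9 RPKM in otu5 low Pi roots, against 24.3, 26.1 and 28.0 RPKM in WT low Pi roots. On control medium the values were 34.2, 34.4 and 35.1 RPKM in otu5 roots, against 28.0, 27.3 and 26.5 RPKM in WT roots. All 6 otu5 libraries were above all 6 WT libraries, and the otu5 control group was the highest of the 4. The level in otu5 was 119% of that in WT on low Pi medium (log2 difference 0.25, SE 0.05, adjusted p = 0.014) and 127% on control medium (0.34, SE 0.05, adjusted p = 0.0045). The control call held in every alternative run, while the low Pi call was lost without otu5 low Pi replicate 1 (adjusted p = 0.059) and without WT low Pi replicate 1 (adjusted p = 0.051), and with only the 6 libraries compared (0.087). Read within each library, CYCD1;1 stood at 14.6, 17.3 and 18.4% of the CYCD2;1 level in otu5 low Pi roots and at 23.8, 18.2 and 21.2% in otu5 control roots, against 45.8, 42.9 and 31.7% in WT low Pi roots and 42.8, 45.9 and 44.2% in WT control roots. Both genes were already called, in opposite directions, so this ratio restates those calls and is no separate support.

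CYCD3;3 (AT3G50070), a close relative of CYCD3;1, had 34.8, 31.6 and 34.0 RPKM in otu5 low Pi roots, against 26.3, 27.8 and 29.9 RPKM in WT low Pi roots. Control roots of otu5 had 33.0, 33.0 and 32.4 RPKM, against 30.0, 30.2 and 26.0 RPKM in WT. The 2 genotypes did not overlap on either medium. The gene was called on low Pi medium (log2 difference 0.26, SE 0.07, adjusted p = 0.040) and not on control medium (0.19, adjusted p = 0.10). The interaction, which tests this difference between media, was 0.07 (adjusted p = 0.99). The low Pi call was lost without otu5 low Pi replicate 1 or 3 (adjusted p = 0.14 and 0.087), when either of WT low Pi replicates 1 and 2 was left out (0.14 and 0.11) and without otu5 control replicate 1, 2 or 3 (0.051, 0.056 and 0.061). It was also lost without trend and robust estimation (0.055), with the replicate number as a block (0.069) and with only the 6 libraries compared (0.099).

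The other 6 D-type cyclins passed in neither genotype comparison. CYCD3;1 itself had 39.5, 41.6 and 51.9 RPKM in otu5 low Pi roots, against 40.1, 41.0 and 40.3 RPKM in WT low Pi roots, and 49.0, 46.7 and 49.8 RPKM in otu5 control roots, against 44.0, 52.1 and 51.1 RPKM in WT control roots. These overlap on both media. CYCD4;2, a weakly expressed cyclin, was at 1.13 to 1.46 RPKM in otu5 low Pi and 1.15 to 1.78 in otu5 control roots, against 1.79 to 1.91 in WT low Pi and 2.06 to 2.16 in WT control roots, and its differences of -0.38 and -0.44 had adjusted p of 0.10 and 0.062. For CYCD6;1, which drives the formative division of the cortex and endodermis initial, the genotype differences were 0.11 on low Pi and -0.05 on control medium (adjusted p = 0.70 and 0.89), and its locus overlaps that of AT4G03260.

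The single A-type kinase, CDKA;1 (AT3G48750), had 51.0, 49.8 and 52.7 RPKM in otu5 low Pi roots, against 51.5, 55.1 and 55.2 RPKM in WT low Pi roots. On control medium it had 57.8, 59.6 and 55.3 RPKM in otu5 roots, against 57.5, 59.1 and 59.4 RPKM in WT roots. Genotypes overlapped on both media, with log2 differences of -0.07 and -0.03 (SE 0.05, adjusted p = 0.34 and 0.77).

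None of the 9 A-type cyclins, which act from S phase to mitosis, passed a genotype comparison by limma. At an unadjusted p under 0.05, 3 were lower in otu5 on low Pi medium and 2 on control medium. Over all 21083 genes, 2891 and 2888 were lower at that level. The nearest by its p-value in limma was CYCA3;2 (AT1G47210), a cyclin linked to S phase. It had 19.5, 19.8 and 23.9 RPKM in otu5 low Pi roots, against 24.9, 26.0 and 23.6 RPKM in WT low Pi roots, and 19.8, 24.2 and 21.8 RPKM in otu5 control roots, against 28.4, 25.5 and 26.1 RPKM in WT control roots. The groups overlapped on low Pi medium and not on control medium, where the difference was -0.28 (SE 0.09, adjusted p = 0.076). Without otu5 low Pi replicate 3 the adjusted p was 0.042. Over the family, differences ran from -0.32 to 0.04 on low Pi medium and from -0.32 to 0.35 on control medium, the last being the barely expressed CYCA1;2. The lowest on control medium was CYCA1;1, at 12.3, 12.7 and 13.2 RPKM in otu5 against 16.3, 15.9 and 16.0 in WT control roots. Its genotypes overlapped on low Pi medium. CYCA2;3, which restrains endoreduplication together with CDKB1;1, differed by -0.10 and -0.05.

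The B-type cyclins and the B-type CDKs, the mitotic partners, gave a uniform result. All 13 genes had a fitted difference below 0 in otu5 on both media, where 10266 of 21083 genes did so on low Pi medium and 10332 on control medium. The 13 were read in the same libraries, so they are not independent replicates. Both CKS genes were also below 0 on both media. Of the 9 A-type cyclins, 8 were below 0 on low Pi medium and 7 on control medium. Of the 13, 4 passed the test on low Pi medium and 7 on control medium, all as lower in otu5, beside 5.64% and 5.25% of all genes. At an unadjusted p under 0.05, 0 of the 13 were higher on either medium, beside 2533 of all 21083 genes on low Pi and 2586 on control medium. Median differences were -0.22 on low Pi medium and -0.28 on control medium. The otu5 libraries all lay below the WT libraries in 7 of the 13 genes on low Pi and 12 on control medium, beside 14.3% and 16.9% of all genes.

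CYCB1;2 (AT5G06150), the strongest B-type cyclin, had 18.5, 19.8 and 23.5 RPKM in otu5 low Pi roots, against 25.5, 25.7 and 26.7 RPKM in WT low Pi roots. In control roots it had 21.4, 21.8 and 22.9 RPKM in otu5, against 28.3, 26.4 and 30.2 RPKM in WT. The highest otu5 library was below the lowest WT library on both media, with log2 differences of -0.33 on low Pi medium (SE 0.08, adjusted p = 0.028) and -0.35 on control medium (SE 0.08, adjusted p = 0.022). CYCB1;4 (AT2G26760), of the same subfamily, had 11.6, 11.3 and 14.6 RPKM in otu5 low Pi roots, against 16.2, 15.7 and 15.7 RPKM in WT low Pi roots. Control roots had 15.1, 14.7 and 15.1 RPKM in otu5, against 19.1, 18.1 and 20.0 RPKM in WT. Here too no library overlapped, and the difference was -0.34 on each medium (SE 0.08, adjusted p = 0.029 on each).

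Of the B2 subfamily, CYCB2;4 (AT1G76310) passed on both media. It had 14.2, 13.3 and 16.1 RPKM in otu5 low Pi roots, against 17.8, 17.8 and 17.1 RPKM in WT low Pi roots, and 15.6, 16.5 and 15.5 RPKM in otu5 control roots, against 18.5, 19.2 and 19.9 RPKM in WT control roots. All otu5 values were the lower ones, with a difference of -0.27 on low Pi medium (SE 0.07, adjusted p = 0.029) and one of -0.26 on control medium (SE 0.07, adjusted p = 0.034). CYCB2;2 (AT4G35620) had 11.8, 11.7 and 13.2 RPKM in otu5 low Pi roots, against 13.5, 14.3 and 14.4 RPKM in WT low Pi roots. Its control values were 12.8, 12.5 and 12.7 RPKM in otu5, against 15.2, 15.5 and 14.2 RPKM in WT. The genotypes were again apart on both media, but the gene passed on control medium (-0.24, SE 0.06, adjusted p = 0.034) and not on low Pi medium (-0.20, adjusted p = 0.064). CYCB2;1 (AT2G17620) had 3.76, 3.75 and 3.88 RPKM in otu5 low Pi roots, against 3.87, 4.30 and 4.53 RPKM in WT low Pi roots. It had 3.56, 4.02 and 3.39 RPKM in otu5 control roots, against 4.81, 4.30 and 5.38 RPKM in WT control roots. Values overlapped on low Pi medium (-0.14, adjusted p = 0.41) and were apart on control medium (-0.36, SE 0.10, adjusted p = 0.045).

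The 4 remaining B-type cyclins did not pass. Their differences lay between -0.27 for CYCB1;3 and -0.18 for CYCB3;1 on low Pi medium and between -0.31 for CYCB3;1 and -0.15 for CYCB1;1 on control medium. CYCB1;1, the widely used mitotic reporter gene whose transcript also rises after DNA damage, had 8.13 ± 0.753 RPKM in otu5 low Pi roots against 9.35 ± 0.671 in WT low Pi roots, and 8.19 ± 0.726 RPKM in otu5 control roots against 9.16 ± 0.244 in WT control roots (SD, n = 3 each; adjusted p = 0.18 and 0.28). Each B-type cyclin call was lost when single libraries were left out. On control medium all 5 were lost without otu5 control replicate 1 (adjusted p 0.057 to 0.097), 2 (0.061 to 0.10) or 3 (0.058 to 0.15) and without WT control replicate 1 (0.062 to 0.11) or 3 (0.055 to 0.15), and on low Pi medium all 3 were lost without otu5 low Pi replicate 1 (0.099 to 0.11) or 2 (0.071 to 0.077) or WT low Pi replicate 1 (0.074 to 0.096) or 2 (0.074 to 0.088). Further losses were those of CYCB1;2 on low Pi medium without WT low Pi replicate 3 (0.061), and on control medium those of CYCB2;2 and CYCB2;4 without WT control replicate 2 (0.096 and 0.075) and of CYCB2;1 without WT low Pi replicate 2 (0.062) or any 1 of the 3 otu5 low Pi replicates (0.053 to 0.064). With the replicate number as a block, CYCB2;1, CYCB2;2 and CYCB2;4 no longer passed on control medium (0.068, 0.057 and 0.052). With only the 6 libraries compared, CYCB2;1 did not pass on control medium (0.096), nor did CYCB1;2, CYCB1;4 and CYCB2;4 on low Pi medium (0.11, 0.12 and 0.12).

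CDKB2;1 (AT1G76540), a kinase of G2 and mitosis that is needed for orderly division in meristems, had 26.98, 25.6 and 30.4 RPKM in otu5 low Pi roots, against 40.0, 36.1 and 37.3 RPKM in WT low Pi roots. Control roots had 35.5, 33.2 and 32.9 RPKM in otu5, against 41.3, 40.9 and 45.2 RPKM in WT. Group means ran upwards in the order otu5 low Pi, otu5 control, WT low Pi, WT control, with no overlap between the genotypes. The level in otu5 was 73.2% of WT on low Pi medium (log2 difference -0.45, SE 0.07, adjusted p = 0.0047) and 79.7% on control medium (-0.32, SE 0.07, adjusted p = 0.019). The low Pi call held in every alternative run, and the control call was lost without otu5 control replicate 2 (adjusted p = 0.069) or 3 (0.074) or WT control replicate 3 (0.074).

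CDKB1;1 (AT3G54180), which with A2-type cyclins holds back endoreduplication, had 17.9, 19.9 and 22.6 RPKM in otu5 low Pi roots, against 22.4, 23.2 and 21.5 RPKM in WT low Pi roots. It had 16.9, 18.5 and 18.1 RPKM in otu5 control roots, against 23.0, 21.1 and 25.1 RPKM in WT control roots. Genotypes overlapped on low Pi medium (-0.15, adjusted p = 0.29) and were apart on control medium, where the gene passed (-0.36, SE 0.09, adjusted p = 0.027). It did not pass without otu5 control replicate 1 (adjusted p = 0.073), 2 (0.064) or 3 (0.077) and without WT control replicate 1 (0.072) or 3 (0.098). CDKB1;2 and CDKB2;2 did not pass, with differences of -0.33 and -0.18 on low Pi and -0.28 and -0.19 on control medium. Summed over the 4 genes, CDKB levels were 71.1 to 84.6 RPKM in otu5 low Pi and 82.5 to 83.5 in otu5 control roots, against 89.3 to 96.1 in WT low Pi and 98.1 to 110 in WT control roots.

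The docking subunits CKS1 (AT2G27960) and CKS2 (AT2G27970) are neighbours on the chromosome with no gene between them, and the sources used here do not say how reads were split between such similar genes. CKS1 had 71.2, 70.2 and 75.1 RPKM in otu5 low Pi roots, against 78.2, 85.4 and 78.8 RPKM in WT low Pi roots, and 74.8, 73.0 and 68.4 RPKM in otu5 control roots, against 86.0, 93.6 and 93.3 RPKM in WT control roots. CKS2 had 51.0, 49.5 and 53.9 RPKM in otu5 low Pi roots, against 62.5, 64.0 and 57.3 RPKM in WT low Pi roots, and 55.6, 57.0 and 51.2 RPKM in otu5 control roots, against 66.7, 70.9 and 69.0 RPKM in WT control roots. For both genes every otu5 library was below every WT library. On control medium each was at 79.3% of WT (log2 difference -0.33 and SE 0.06 for each, adjusted p = 0.0070 for CKS1 and 0.0087 for CKS2), and both calls held in every alternative run. On low Pi medium CKS2 passed (-0.25, SE 0.06, adjusted p = 0.026) and CKS1 did not (-0.16, adjusted p = 0.099), and CKS2 did not pass once otu5 low Pi replicate 1 or 2 (0.086 and 0.071) or a WT low Pi library, replicate 1 or 2 (0.093 and 0.095), was left out, under quantile scaling (0.058) or with only the 6 libraries compared (0.092).

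Of the CDK inhibitors, 1 of 7 KRP genes and 0 of 5 SIM/SMR genes passed a genotype comparison. Over all genes 9.52% passed on low Pi medium and 9.86% on control medium. KRP2 (AT3G50630), an inhibitor known for holding back lateral root initiation, had 24.4, 20.9 and 22.5 RPKM in otu5 low Pi roots, against 26.7, 25.8 and 22.6 RPKM in WT low Pi roots. In control roots it had 25.2, 22.5 and 23.4 RPKM in otu5, against 30.8, 30.6 and 32.2 RPKM in WT. The WT control libraries stood above the other 9, which overlapped among themselves. KRP2 was lower in otu5 on control medium (-0.39, SE 0.07, adjusted p = 0.012, held in every alternative run), and on low Pi medium the difference was -0.14 (adjusted p = 0.25).

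The other KRP genes had differences of both signs. On control medium they ran from -0.47 for KRP3 (adjusted p = 0.084) to 0.27 for KRP1 (adjusted p = 0.32), and KRP6, the second strongest, was at 23.8 ± 1.90 RPKM in otu5 roots against 19.8 ± 2.19 in WT roots (SD, n = 3 each; difference 0.26, adjusted p = 0.099). On low Pi medium they ran from -0.12 for KRP7 to 0.15 for KRP1. In the SIM/SMR family 1 gene had an unadjusted p under 0.05 on control medium, as lower in otu5, and 0 did on low Pi medium. Over all 21083 genes, 2888 were lower and 2586 higher at that level on control medium, and 2891 and 2533 on low Pi medium. The SIM/SMR gene under that level was SIM (AT5G04470), which acts in endoreduplication, best known from trichomes. It had 38.5, 33.1 and 38.6 RPKM in otu5 low Pi roots, against 39.9, 34.9 and 33.5 RPKM in WT low Pi roots, and 37.6, 35.5 and 37.6 RPKM in otu5 control roots, against 46.7, 38.8 and 42.4 RPKM in WT control roots. The genotypes overlapped on low Pi medium (0.03, adjusted p = 0.89) and were narrowly apart on control medium (-0.20, adjusted p = 0.17).

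SMR5 and SMR7, inhibitors that are raised by DNA damage and reactive oxygen, had wide spreads. SMR7 was at 2.47 to 8.45 RPKM in otu5 low Pi and 5.02 to 7.61 in otu5 control roots, against 4.38 to 7.65 in WT low Pi and 2.53 to 8.72 in WT control roots, and its differences of -0.13 and 0.20 had standard errors of 0.47. SMR5 was at 6.94 to 13.8 RPKM in otu5 low Pi and 12.1 to 16.5 in otu5 control roots, against 12.1 to 14.7 in WT low Pi and 14.1 to 19.2 in WT control roots. Its locus lies wholly inside that of AT1G07510 in the RefSeq gene table, so its reads cannot be told from those of that gene without strand, and the sources used here do not say whether strand was used. Several called genes also share a stretch with a neighbour: CYCD1;1 with AT1G70209, CKS2 with AT2G27980, CDKB1;1 with AT3G54190 and CDKB2;1 with AT1G76530. AT1G70209, AT2G27980 and AT3G54190 were tested and passed in none of the 4 pairwise comparisons, and AT1G76530 stayed under the 1 RPKM minimum. AT1G70209, the neighbour of CYCD1;1, was listed at 15.7 RPKM in WT control replicate 3 and at 0 in the other 11 libraries, with a fitted difference of -1.67 on control medium (adjusted p = 0.35).

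**Figure D3:**
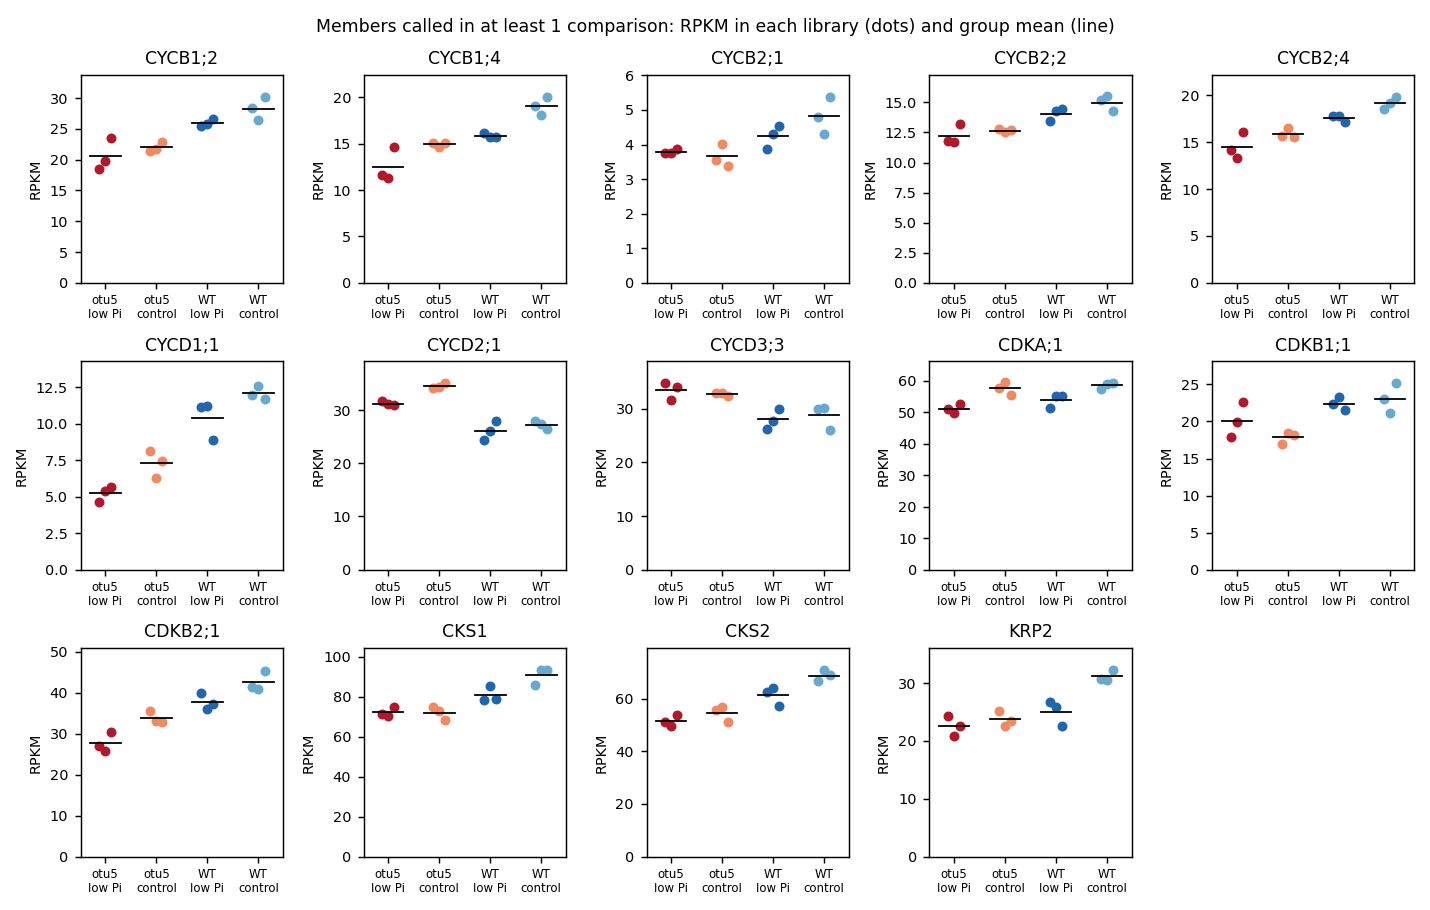
RPKM in each library (dots) and group means (lines) of the 14 genes that passed in at least 1 comparison; each panel starts at 0, with the groups otu5 low Pi, otu5 control, WT low Pi and WT control from left to right. CYCD1;1 shows the widest separation of the genotypes, and in CYCD2;1 and CYCD3;3 the otu5 libraries are the higher ones.

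Low Pi against control medium gave few calls among these genes, none of them higher. In otu5 roots 3 of the 46 genes fell on low Pi medium and 0 rose, where 3.6% of all genes fell and 4.64% rose (8.24% in either direction). In WT roots 1 gene fell and 0 rose, where 1.64% of all genes fell and 2.46% rose (4.1% in either direction). The share of the 46 genes that fell was thus near that of all genes in WT and somewhat above it in otu5. At an unadjusted p under 0.05, 8 genes were lower and 0 higher in otu5 roots, beside 2524 and 2587 of all 21083 genes. In WT roots 8 were lower and 1 higher at that level, beside 2022 and 2129 of all genes. Most fitted differences were nonetheless below 0, namely 30 of 46 in otu5 (11085 of 21083 for all genes) and 36 of 46 in WT (10851 of 21083). Median differences were -0.06 in otu5 and -0.12 in WT, beside -0.01 and -0.0043 over all genes. Low Pi libraries lay below all control libraries in 7 genes and above them in 1 gene in otu5, beside 14% of all genes in each direction, and in 12 and 2 genes in WT, beside 12.2% and 12.8%.

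**Figure D4:**
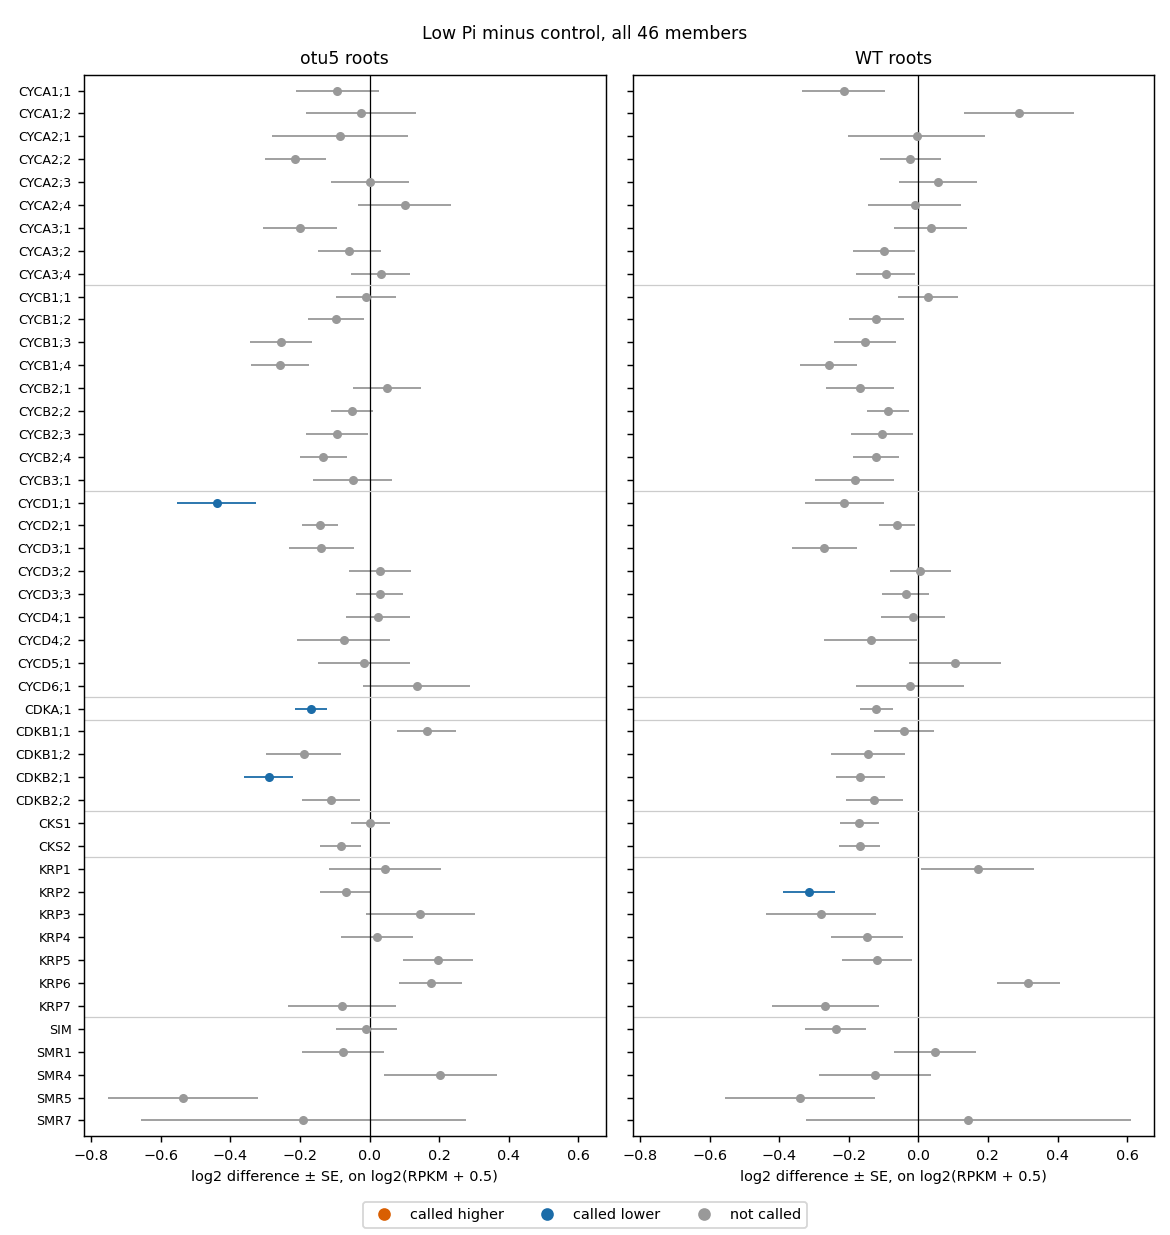
Differences low Pi minus control on the log2(RPKM + 0.5) scale with their standard errors (horizontal axis) for all 46 genes (rows, grouped by family), in otu5 roots (left) and WT roots (right); coloured dots passed the test. CYCD1;1, CDKA;1 and CDKB2;1 passed in otu5 and KRP2 passed in WT, each as lower on low Pi medium.

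The 3 genes that fell in otu5 were CYCD1;1, CDKB2;1 and CDKA;1, whose library values are given above. CYCD1;1 was at 5.22 ± 0.539 RPKM in otu5 low Pi roots against 7.28 ± 0.947 in otu5 control roots (SD, n = 3 each), a log2 difference of -0.44 (SE 0.11, adjusted p = 0.040), and in WT roots the difference was -0.21 (adjusted p = 0.34). CDKB2;1 was at 27.7 ± 2.43 RPKM in otu5 low Pi against 33.9 ± 1.43 in otu5 control roots, a difference of -0.29 (SE 0.07, adjusted p = 0.031), and in WT of -0.17 (adjusted p = 0.22). CDKA;1 was at 51.2 ± 1.48 RPKM in otu5 low Pi against 57.6 ± 2.16 in otu5 control roots, a difference of -0.17 (SE 0.05, adjusted p = 0.049), and in WT of -0.12 (adjusted p = 0.18). In each of the 3 genes the otu5 low Pi libraries lay below the otu5 control libraries, and the WT libraries were likewise apart, with low Pi the lower. None of the 3 had a detectable interaction, the test of whether the low Pi difference in otu5 departs from that in WT (adjusted p = 0.96 for the first 2 and 0.99 for CDKA;1). Of the 3 calls 0 remained without otu5 low Pi replicate 1 or 2 or otu5 control replicate 1 or 3, 1 without otu5 control replicate 2, WT low Pi replicate 2 or any 1 of the 3 WT control replicates, and 6 members passed without otu5 low Pi replicate 3. With only the 6 libraries compared all 3 were lost (0.085 to 0.12), and with the replicate block and with no filter on low genes CYCD1;1 (0.068 and 0.051) and CDKA;1 (0.072 and 0.053) were. CDKA;1 was also lost under quantile scaling (0.080) and without trend and robust estimation (0.070).

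In WT roots KRP2 was the gene that fell, to 25.0 ± 2.13 RPKM on low Pi medium, against 31.2 ± 0.871 on control medium (SD, n = 3 each). Its log2 difference was -0.31 (SE 0.07, adjusted p = 0.043), and in otu5 roots it was -0.07 (adjusted p = 0.63). The interaction was 0.25 (unadjusted p = 0.039, adjusted p = 0.91). The WT call was lost without otu5 control replicate 2 or 3 (adjusted p = 0.055 and 0.069), when WT low Pi replicate 2 or 3 was left out (0.089 and 0.12) and without WT control replicate 1, 2 or 3 (0.096, 0.084 and 0.15). It was also lost with no filter on low genes (0.055), without trend and robust estimation (0.059) and with only the 6 libraries compared (0.065). KRP6 was the gene nearest to a rise, at 24.7 ± 1.11 RPKM in WT low Pi against 19.8 ± 2.19 in WT control roots (difference 0.32, adjusted p = 0.081). CYCD3;1 had 40.5 ± 0.506 RPKM in WT low Pi against 49.1 ± 4.38 in WT control roots, without passing (-0.27, adjusted p = 0.14), and SIM, the SIM/SMR gene with the smallest p, did not pass either (-0.24, adjusted p = 0.16).

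The interaction over all 46 genes gave 0 calls by limma, where 1 of all genes tested passed (0.00474% as higher in the low Pi difference of otu5 and 0% as lower). At an unadjusted p under 0.05 there were 2 of the 46 genes, KRP2 and KRP5 (0.32, unadjusted p = 0.048, adjusted p = 0.92). Both had a higher low Pi difference in otu5 than in WT. Over all genes tested, 529 of 21083 were higher and 618 lower at that level, so 2 of 46 is near the share of all genes. KRP5 was at 9.78 ± 0.540 RPKM in otu5 low Pi against 8.48 ± 0.670 in otu5 control roots, and at 9.02 ± 0.542 RPKM in WT low Pi against 9.90 ± 1.42 in WT control roots. The 4 pairwise comparisons share groups with each other, so a gene that is high in WT control, as KRP2 is, enters both the WT low Pi and the control genotype comparison.

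Other cell cycle genes were read from a list of 44 further regulators and mitotic genes, of which 42 were tested and 2, CYCA3;3 and CYCD7;1, stayed under 1 RPKM in every library. In otu5 against WT, 4 were lower and 0 higher on low Pi medium, beside 5.64% and 3.88% of all genes. On control medium 5 were lower and 0 higher, beside 5.25% and 4.61% of all genes. At an unadjusted p under 0.05, 12 list genes were lower and 1 higher on low Pi medium, beside 2891 and 2533 of all 21083 genes. On control medium 14 were lower and 0 higher, beside 2888 and 2586 of all genes. The list genes called in these 2 comparisons act in mitosis and cytokinesis. KNOLLE, the syntaxin of the cell plate, had 49.0, 48.4 and 58.6 RPKM in otu5 low Pi roots, against 69.4, 69.1 and 65.6 RPKM in WT low Pi roots, and 58.7, 57.0 and 53.7 RPKM in otu5 control roots, against 75.4, 73.6 and 77.8 RPKM in WT control roots. No library overlapped, and the difference was -0.39 on low Pi medium (SE 0.07, adjusted p = 0.0087), beside -0.42 on control medium (SE 0.07, adjusted p = 0.0069). The mitotic kinase AUR1 fell by 0.31 (adjusted p = 0.025) and 0.37 (adjusted p = 0.014) on the log2 scale, and CDC20.1, an activator of the anaphase-promoting complex, passed on both media (-0.34 and -0.32, adjusted p = 0.028 and 0.034). HINKEL, a cytokinesis kinesin, passed on low Pi medium (-0.26, adjusted p = 0.044), and AUR2 and the microtubule-binding EDE1 passed on control medium (-0.37 and -0.39, adjusted p = 0.038 and 0.042). KNOLLE was lost on low Pi medium with only the 6 libraries compared (adjusted p = 0.066) and held in the other alternatives on both media. HINKEL was lost in 11 of the 12 fits that left out 1 library, all but that without otu5 low Pi replicate 3 (adjusted p 0.0501 to 0.14), and in 5 of 9 other alternatives. EDE1 was lost in 9 such fits, which left out otu5 low Pi replicate 1, WT low Pi replicate 1 or 2 or any control library (0.054 to 0.14), with the block (0.063) and with only 6 libraries (0.079). AUR2 was lost in 5, without otu5 control replicate 2 or 3 or any WT control library (0.072 to 0.13), and with the block (0.066). AUR1 was lost on low Pi medium without replicate 1 or 2 of either genotype (0.058 to 0.099) and with only 6 libraries (0.085), and on control medium without WT control replicate 3 (0.052). CDC20.1 was lost on low Pi medium without otu5 low Pi replicate 1 or 2 or any WT low Pi library (0.056 to 0.11) and with only 6 libraries (0.095), and its control call was not run under the alternatives. The median difference of the list was -0.08 on low Pi and -0.16 on control medium. For low Pi against control 1 gene was called, AT1G10690, which rose in otu5 (0.44, adjusted p = 0.030) but was lost without otu5 low Pi replicate 1 or 2 or any otu5 control library (0.059 to 0.11), with the block (0.053) and with only 6 libraries (0.065). In WT 0 were called, with 3 lower and 0 higher at an unadjusted p under 0.05, beside 2022 and 2129 of all 21083 genes.

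A list of 10 DNA damage response genes, 9 of them tested, is given because CYCB1;1, SMR5 and SMR7 are also known to answer DNA damage. ANAC044, a transcription factor acting downstream of SOG1, had 6.01, 5.26 and 4.54 RPKM in otu5 low Pi roots, against 2.15, 2.31 and 2.56 RPKM in WT low Pi roots, and 5.35, 6.004 and 5.89 RPKM in otu5 control roots, against 2.35, 2.60 and 2.66 RPKM in WT control roots. It rose by 1.02 and 1.04 on the log2 scale (adjusted p = 0.00089 and 0.0014). GMI1, a gene induced by ionising radiation, rose as well (0.76 and 0.72, adjusted p = 0.0098 and 0.014), but not on control medium without otu5 control replicate 2 or 3 (0.056 and 0.059) or on low Pi medium with only 6 libraries (0.052). The other 7 did not pass on either medium, among them BRCA1 (-0.10 and 0.05) and SOG1 (-0.06 and -0.002), and CYCB1;1, SMR5 and SMR7 did not pass either. PARP2 rose on low Pi medium in WT (0.36, adjusted p = 0.046), a call lost in 9 of the 12 fits that left out 1 library, namely those without any WT library, otu5 low Pi replicate 1 or otu5 control replicate 2 or 3 (0.055 to 0.16), and in 3 of 9 other alternatives.

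Markers of other tissues moved with some of these comparisons, and their part in the results was not tested. Their calls were not run under the alternatives. Of the 9 root meristem and stem cell niche genes 0 passed in any comparison. At an unadjusted p under 0.05, 1 of them was lower and 0 higher in otu5 on each medium. Over all 21083 genes, 2891 were lower on low Pi and 2888 on control medium. The medians of the list were 0.02 on both, with 6 of 9 genes fitted above 0 on low Pi and 5 of 9 on control medium. JKD lay lower in otu5 without overlap, at 16.0 to 16.6 RPKM against 17.4 to 18.8 on low Pi and 16.8 to 17.7 against 18.5 to 21.4 on control medium. PLT3 lay higher in otu5 on low Pi medium, at 21.9 to 22.8 RPKM against 16.6 to 21.4. Of the 6 green shoot genes 2, RCA and GAPB, were higher in otu5 on low Pi medium (0.34 and 0.37, adjusted p = 0.034 and 0.016) and on control medium (0.52 and 0.51, adjusted p = 0.0063 and 0.0042), beside 3.88% and 4.61% of all genes. Fitted differences were above 0 in 5 of the 6 on each medium. PSAD1 went the other way, with means of 35.9 RPKM in otu5 low Pi against 40.6 in WT low Pi roots. Its control means were 44.4 RPKM in otu5 and 48.0 in WT. On low Pi medium 3 of the 6 fell in otu5 and 2 in WT, beside 3.6% and 1.64% of all genes. Of 5 lateral root initiation genes PUCHI was lower in otu5 on low Pi medium (-0.79, adjusted p = 0.041), beside 5.64% of all genes. In the same list LBD29 fell on low Pi medium in otu5 (-1.16, adjusted p = 0.015), beside 3.6% of all genes. Summed levels of the list were 6.47 to 8.39 RPKM in otu5 low Pi, 8.31 to 11.8 in otu5 control, 9.03 to 11.1 in WT low Pi and 10.98 to 11.9 in WT control. Of 4 genes of differentiated root cells CASP1 was lower in otu5 on low Pi medium (-0.48, adjusted p = 0.013), beside 5.64% of all genes. These 4 summed to 184 to 197 RPKM in otu5 low Pi, 206 to 251 in otu5 control, 206 to 271 in WT low Pi and 239 to 266 in WT control.

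**Figure D5:**
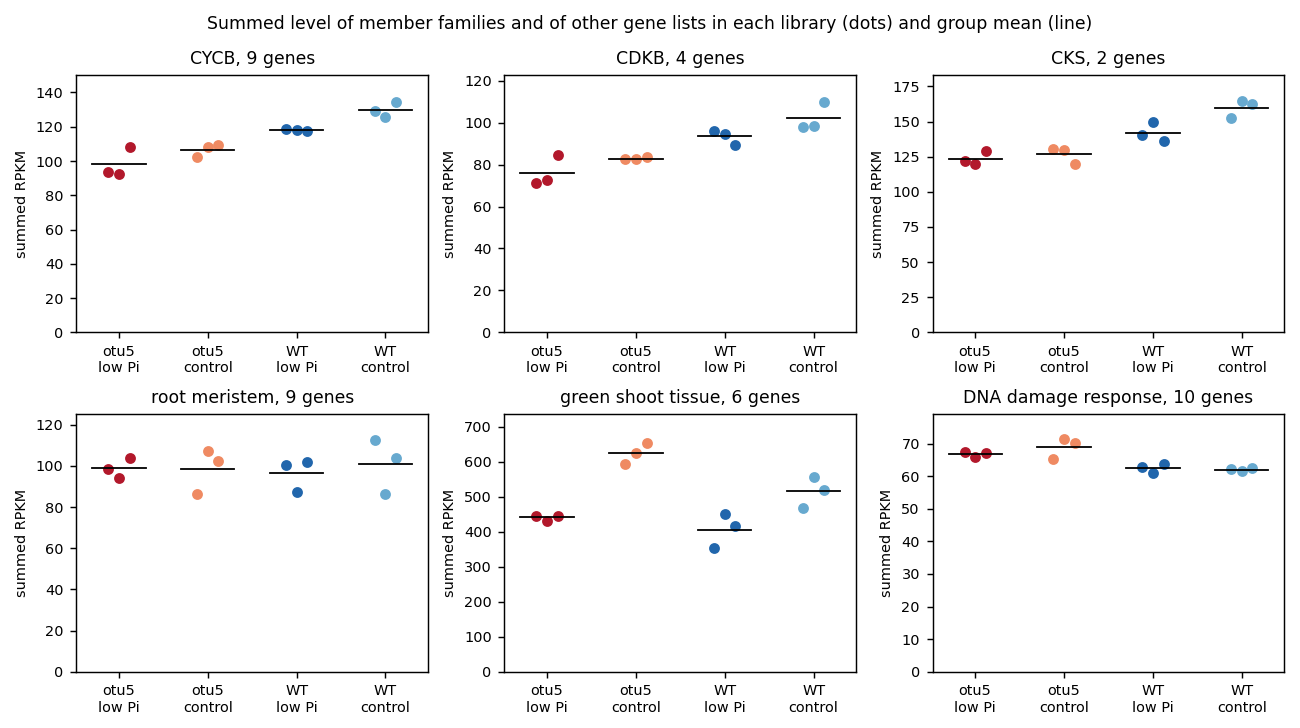
Summed RPKM per library (dots) and group means (lines) of the CYCB, CDKB and CKS genes (top) and of the root meristem, green shoot and DNA damage lists (bottom), each panel starting at 0, with otu5 low Pi, otu5 control, WT low Pi and WT control from left to right. CYCB sums were 92.2 to 108 RPKM in otu5 low Pi and 102 to 109 in otu5 control, below the 118 of all WT low Pi libraries and the 126 to 135 of WT control. Root meristem sums, which add genes fitted above and below 0, overlap in all 4 groups.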

How the data were processed

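Per the labels, polyadenylated RNA of 12 root libraries (4 groups of 3) was sequenced. The 8 methylation and 16 chromatin samples were not analysed here. The deposited table holds RPKM values that the authors made before deposit. The submitters' processing notes name TopHat2 2.0.4, Cuffdiff and TAIR10 without their roles, and how values were scaled, whether strand was used and how reads of similar or overlapping genes were shared are not stated in the sources used here. The table has no counts, so depth is unknown, no counting interval was made and no count test was run.

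The test was limma 3.58.1, run in R 4.3.3 on log2(RPKM + 0.5), in 1 fit of 4 group means over the 12 libraries (8 residual degrees of freedom, empirical Bayes with trend and robust estimation). Differences on this scale understate changes of low genes. Genes under 1 RPKM in all libraries were left out (12474, against 21083 tested), and Benjamini-Hochberg adjustment covered every gene tested (threshold 0.05). The fit was tested on simulated data. Replicates of a group correlated at Pearson r between 0.966 and 0.981 over the genes tested and shared at most 1.08% identical values, so no column repeats another. Each was entered as 1 sample, although these values cannot tell separate cultures from technical replicates. Any scaling sets the typical gene level, so a change in total mRNA per cell cannot be seen.

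Members and gene lists were chosen with earlier results of these data known. Values in every library are given for OTU5, for each member called, for the strongest member of each family and, in families with no call, for the member with the smallest p. Of the other cell cycle and DNA damage genes up to 4 called genes per comparison are named. CDC20.1 on control medium, AT1G10690, CYCD4;2, CYCD6;1, CYCA1;1, CYCA2;3, CYCB1;1, KRP1, KRP3, KRP5, KRP6, SMR5, SMR7 and the marker genes named singly were chosen after their values were seen. Gene names come from the files' identifiers through a RefSeq gene table (assembly TAIR10.1). This held 32810 of the identifiers (97.8%), among them all 46 members, and was used for names, neighbours and overlaps only. It does not give AT1G10690 the name SMR8.

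Alternatives were pseudocounts of 0.1 and 1, a filter on 3 libraries or none, median-ratio and quantile scaling, limma without trend and robust estimation, a fit of only the 6 libraries compared, the replicate number as a block, and leaving out each library in turn.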

Additional observations from a re-analysis of the deposited data

How the results depend on the processing

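Over 42 results on named genes and 882 alternative values, 693 kept direction and side of the threshold, 188 kept the direction but no longer passed, 1 newly passed (CYCA3;2 on control medium) and 0 reversed. Of the members called on control medium, 5 of 12 passed in every alternative run (CYCD1;1, CYCD2;1, CKS1, CKS2 and KRP2), and on low Pi medium 2 of 8 did (CYCD1;1 and CDKB2;1). None of the 4 calls for low Pi against control did. The cause of these losses was not tested.

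Leaving out 1 library at a time, members called numbered 5 to 13 for otu5 against WT on control medium (12 with all libraries), 2 to 11 on low Pi medium (8), 0 to 6 for low Pi in otu5 (3) and 0 to 3 for low Pi in WT (1). On control medium 7, 5 and 5 passed without otu5 control replicate 1, 2 and 3, and 6 and 5 without WT control replicate 1 and 3. On low Pi medium 2 and 4 passed without otu5 low Pi replicate 1 and 2, and 2 and 3 without WT low Pi replicate 1 and 2. In WT 3 passed without otu5 low Pi replicate 3. Over all genes these fits gave 662 to 2226, 815 to 2231, 495 to 2501 and 212 to 1335 calls in the same order, and 0 to 17 for the interaction.

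With only the 6 libraries compared, low Pi in WT and in otu5 gave 0 members each and otu5 against WT on low Pi medium gave 2, beside 833 genes of the whole table for low Pi in otu5 and 429 for otu5 against WT on low Pi medium. Such a fit has fewer samples. Without a filter, 0 members passed for low Pi in WT and 1 in otu5, and without trend and robust estimation 0 passed in WT. The interaction over all genes gave 2 calls under each of these 2 settings.

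Same-numbered libraries were not paired by the labels, and their deviations correlated at between -0.11 and 0.21. Every library correlated best with its own number between the WT groups, which is a hint from the data and not the design. With the replicate block, members called were 9 and 7 for otu5 against WT on control and low Pi medium and 1 each for low Pi in otu5 and in WT, and the interaction over all genes gave 0. Under the filter on 3 libraries CYCA1;2 left the test.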
